A study of Mus musculus with 22 samples.

Results

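The genes described here are 37 genes of the hypoxia response and of glycolysis, out of 41388 genes in the deposited tables. They were chosen by symbol, as the subunits and sensors of the hypoxia-inducible factor (HIF) pathway, the enzymes and transporters of glycolysis, and genes known to be induced by low oxygen, and the rule used no measured value. All 37 were found in the files and all 37 passed the filter on low counts, so none is missing from the tests.

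Stromal cells were sorted from tumors grown in mice that carry Cre-dependent TdTomato (TdT), and mRNA of 22 libraries was sequenced. CD45, the surface protein of leukocytes encoded by Ptprc, and TdT together defined 4 populations: TdT+;CD45-, TdT+;CD45+, TdT-;CD45+ and TdT-;CD45-. Mice were C57BL/6 at postnatal day 56, and were either Osx-cre;Ai9 (labelled wild type, 4 mice inoculated) or Cdh2-cKO;Ai9 (6 mice inoculated). Each genotype held 2 libraries of TdT+;CD45- cells and 3 of each other population. Both genotypes therefore carried the Ai9 reporter and a tumor, and TdT+ cells, which the labels call Osx+, were sorted from both, though the labels do not spell out which Cre the Cdh2-cKO;Ai9 mice carried. Per the study's methods, doxycycline in the diet until weaning kept Cre off until then in the Osx-cre mice it used for most experiments. There was no library from a mouse without a tumor or from tumor cells sorted as such. In Osx-cre the promoter of Sp7, which encodes osterix, drives a tetracycline-regulated Cre, and TdT marks a cell whose ancestor expressed it as well as one that does so now. The labels call the tumors orthotopic MMTV-BO1, the design text calls them subcutaneous, and the study's methods name a subcutaneous PyMT-BO1 line labelled with GFP. The labels name the libraries biological replicates without saying which mouse each came from, so p-values measure the spread between libraries.

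When oxygen is low, the prolyl hydroxylases that mark HIF alpha subunits for destruction slow down, the alpha subunits (encoded by Hif1a and Epas1) pair with Arnt, and the dimer binds the core letters ACGTG in the DNA near its targets. Targets include glucose transporters, nearly every enzyme of glycolysis, the carbonic anhydrases that handle acid outside the cell, and the enzymes that hydroxylate collagen. Tumors are often poorly supplied with oxygen, and HIF alpha subunits are controlled mostly at the level of protein, so the mRNA of the subunits and that of their targets are separate measurements.

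The libraries held between 16594228 and 26784003 counts (median 18977040), and 3 counts, the smallest signal taken as present, corresponded to 0.103 to 0.201 normalized CPM (counts scaled to library size and TMM factor). Mitochondrial genes took 1.38% to 13.7% of the counts. The sorts held by their markers in part: the sum of 4 leukocyte markers was 5841 to 7752 normalized CPM in CD45+ libraries and 31.4 to 3701 in CD45- libraries, and that of 6 fibroblast markers was 59.9 to 213 in CD45+ and 4223 to 58907 in CD45- libraries. Wild type TdT-;CD45- replicate 3 (3701) and Cdh2-cKO TdT+;CD45- replicate 1 (2398) held the most leukocyte transcripts among CD45- libraries. Wild type TdT-;CD45+ replicate 2 stood apart among CD45+ libraries, with 3450 normalized CPM of 4 B cell markers where the other 11 held at most 21.6. It also held the highest sums of T cell (1378), neutrophil (848) and endothelial markers (217) and the lowest of macrophage markers (2240). The other 11 held at most 298, 95.8 and 37.1, and at least 5625 of macrophage markers. Keratin transcripts remained in all populations, as the sum of 5 epithelial or tumor markers was 33.8 to 1994 in CD45- and 132 to 470 in CD45+ libraries, while Epcam itself did not exceed 2.04 in any CD45- library. Cdh2, the targeted gene, was at 9.13 and 5.19 normalized CPM in wild type TdT+;CD45- libraries and at 17.2 and 13.1 in those labelled Cdh2-cKO. It was not lower in the libraries labelled Cdh2-cKO, and a count over the whole gene cannot show whether a part of it was deleted.

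The first question was whether the module differed between the CD45+ and CD45- cells of the tumor stroma. Of the 37 members, 26 differed at an adjusted p of at most 0.05 (edgeR's quasi-likelihood test over 15018 genes), 15 higher and 11 lower in CD45+ cells. Among all genes tested, 63.7% differed, 32.6% higher and 31.1% lower, so the members' 26 of 37 stands near the background and is no result about the module as such. The median log2 fold change was 0.08 over the members and 0.06 over all genes. The split depended on scaling: with library totals in place of TMM factors the median of all genes moved to -0.26 and 7 members were higher and 16 lower, while calls over all genes went from 51.2% higher to 32.2% higher. Bulk libraries cannot tell fewer expressing cells from less RNA per cell. Without the 2 wild type libraries that stand apart (TdT-;CD45+ replicate 2 and TdT-;CD45- replicate 3) 24 members were called, 13 higher and 11 lower, and without the 2 CD45- libraries with the most leukocyte transcripts 24, 14 higher and 10 lower. All 26 called members had the same sign in the 11 wild type libraries alone and in the 11 Cdh2-cKO libraries alone. Of the 37, 15 were called in the wild type libraries (38.4% of all genes), 19 in the Cdh2-cKO libraries (58.3% of all genes) and 13 in both.

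**Figure D1:**
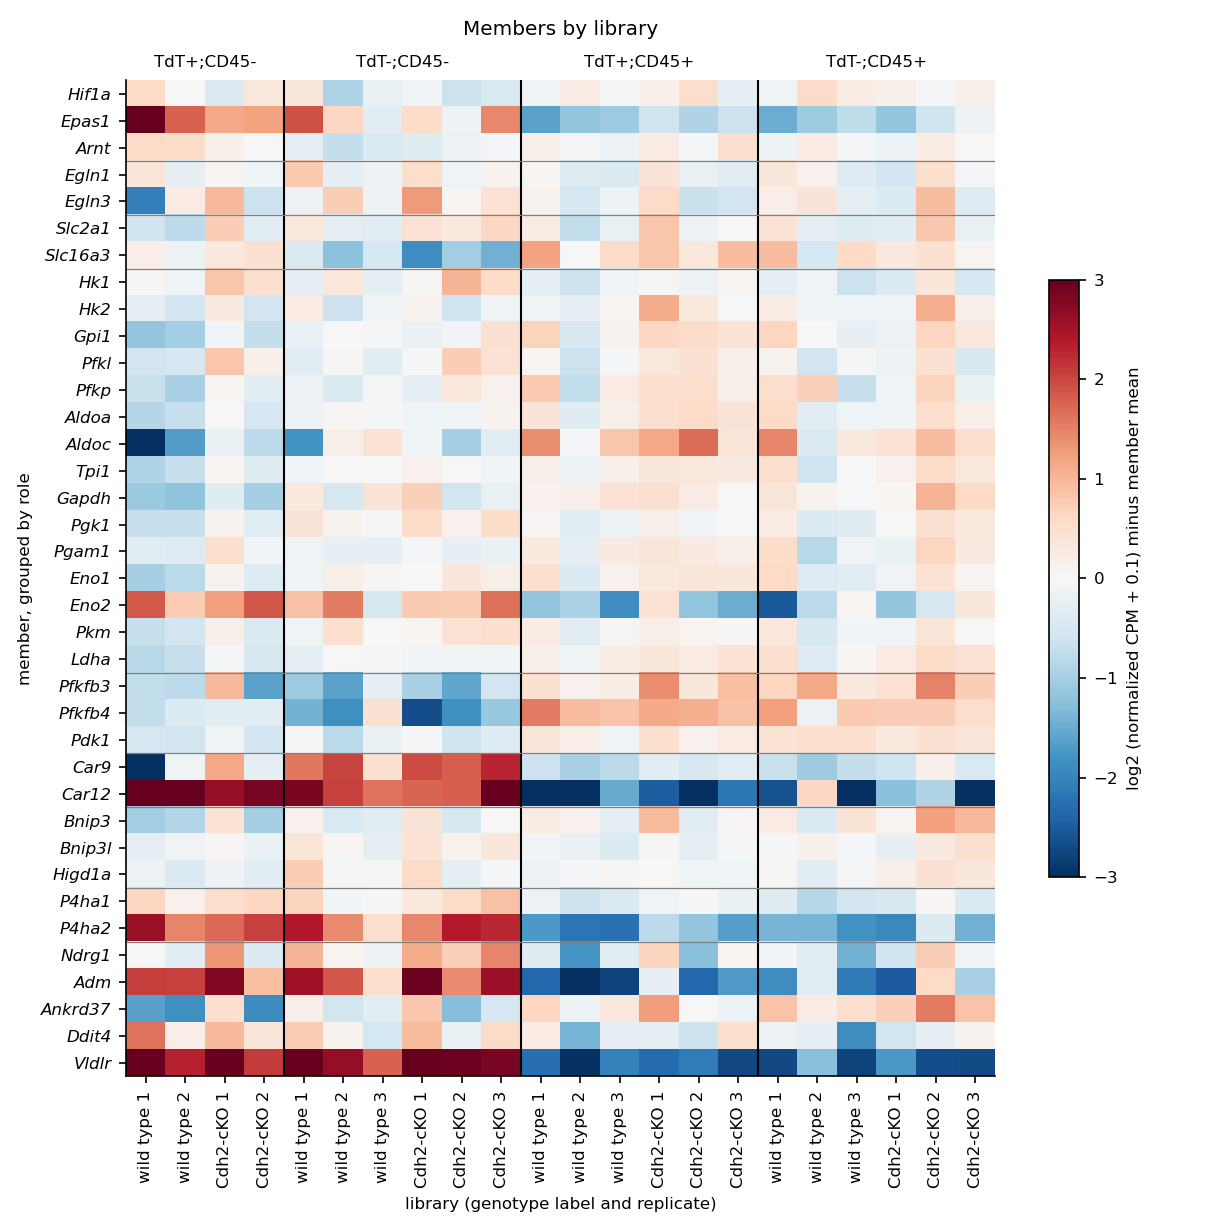
Each row is a member, grouped by role, and each column a library, grouped by sorted population. Color is the log2 of normalized CPM plus 0.1 minus the member's mean over the 22 libraries, cut at 3 in both directions. Epas1, Eno2, Car12, P4ha2, Adm and Vldlr are red in the 10 CD45- columns with few exceptions and blue in most of the 12 CD45+ columns, and most glycolytic enzymes vary little.

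Among HIF subunits, Epas1 (ENSMUSG00000024140, chromosome 17, 86753907 to 86833410 on the plus strand of GRCm38), which encodes HIF-2 alpha, was lower in CD45+ cells. It ranged from 4.22 to 11.7 normalized CPM in the 12 CD45+ libraries (median 6.56) and from 10.4 to 111 in the 10 CD45- libraries (median 29.6). The groups met only at wild type TdT-;CD45- replicate 3, the CD45- library with the most leukocyte transcripts, and the highest value belonged to wild type TdT+;CD45- replicate 1. The log2 fold change was -2.31 ± 0.26 (SE; edgeR, adjusted p = 8.94e-07), and it was -2.99 in wild type and -1.69 in Cdh2-cKO libraries. The difference of 1.36 ± 0.52 between the genotypes did not pass the test (adjusted p = 0.601, edgeR; unadjusted p = 0.017 by the same test).

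Hif1a, which encodes HIF-1 alpha, ranged from 92.4 to 164 normalized CPM in CD45+ libraries (median 120.6) and from 57.5 to 166 in CD45- libraries (median 97.2). The ranges overlapped and the log2 difference was 0.20 ± 0.16 (SE; edgeR, adjusted p = 0.285). Arnt, the common partner, ranged from 33.9 to 54.0 in CD45+ and from 23.5 to 58.0 in CD45- libraries (log2 difference 0.08 ± 0.10; adjusted p = 0.511, edgeR). The balance of the subunits differed. Per length, on the scale of normalized RPKM (the normalized CPM divided by the length of the gene's exons), Hif1a held 90.5% to 96.0% of the summed level of Hif1a and Epas1 in CD45+ libraries and 57.4% to 89.0% in CD45- libraries, ranges that did not overlap. Hif1a was the larger of the pair in all 22 libraries.

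The prolyl hydroxylases did not pass the test. Egln1 (PHD2), the main sensor in most cells, ranged from 27.9 to 57.3 normalized CPM in CD45+ and from 33.4 to 70.1 in CD45- libraries (log2 difference -0.16 ± 0.17). Egln3 (PHD3), itself induced by HIF, ranged from 8.54 to 26.15 and from 3.215 to 33.1 (log2 difference -0.18 ± 0.30). Its lowest library was wild type TdT+;CD45- replicate 1. Per length, Egln1 was the larger of both in all 22 libraries, with 52.4% to 92.5% of their sum.

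Members outside glycolysis moved furthest. Vldlr (ENSMUSG00000024924, chromosome 19, 27216484 to 27254231, plus strand), the VLDL receptor, was counted 0 to 6 times in each CD45+ library, 0 to 0.344 normalized CPM (median 0.0886), and ranged from 3.47 to 21.6 in CD45- libraries (median 7.73). P4ha2 (ENSMUSG00000018906, chromosome 11, 54100095 to 54131665, plus strand), a catalytic subunit of collagen prolyl 4-hydroxylase, ranged from 16.4 to 58.5 in CD45+ libraries (median 26.9) and from 108.5 to 476 in CD45- libraries (median 289.7). Car12 (ENSMUSG00000032373, chromosome 9, 66713686 to 66766845, plus strand), a membrane carbonic anhydrase, ranged from 0.0585 to 3.09 in CD45+ libraries (median 0.258) and from 6.33 to 37.9 in CD45- libraries (median 13.6). These were the members whose CD45+ and CD45- libraries did not overlap, 3 of 37 lower and 0 higher, where 11% of all genes did not overlap and were lower and 3.71% did not overlap and were higher. Their log2 fold changes were -6.07 ± 0.44, -3.41 ± 0.25 and -5.03 ± 0.52 in that order (SE; edgeR, adjusted p = 3.62e-09, 4.23e-09 and 2.75e-07). The values of Vldlr in CD45+ cells rest on a few counts per library and lie at or near the floor, so the size of its change is uncertain. The highest Car12 value among CD45+ libraries was that of wild type TdT-;CD45+ replicate 2, the library that stood apart by several marker sums, and the next was 1.003.

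Adm, which encodes the vasodilator peptide adrenomedullin, ranged from 3.39 to 44.15 normalized CPM in CD45+ libraries (median 7.23) and from 41.5 to 223 in CD45- libraries (median 122). The groups met at Cdh2-cKO TdT-;CD45+ replicate 2 and wild type TdT-;CD45- replicate 3, and the log2 fold change was -3.51 ± 0.42 (SE; edgeR, adjusted p = 1.48e-06). P4ha1, the other collagen prolyl hydroxylase of the module, ranged from 105 to 197 in CD45+ and from 182.5 to 354 in CD45- libraries, a smaller fall of 0.79 ± 0.125 on the log2 scale (SE; adjusted p = 3.37e-05, edgeR). Per length the P4ha1 share of the pair was 83.6% to 92.9% in CD45+ and 49.0% to 72.1% in CD45- libraries, again without overlap. The fibroblast marker sums given above also separated CD45- from CD45+ libraries, and their part in this result was not tested.

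Car9, the carbonic anhydrase widely used as a mark of hypoxic tissue, ranged from 17.6 to 40.7 normalized CPM in CD45+ libraries (median 23.8) and from 2.25 to 181 in CD45- libraries (median 96.9). CD45+ libraries were closely grouped, whereas CD45- libraries lay on both sides of them, with wild type TdT+;CD45- replicate 1 below all 12. The log2 fold change was -1.34 ± 0.31 (SE; edgeR, adjusted p = 0.00114), and it did not pass the test in the wild type libraries alone (-1.04, adjusted p = 0.151). Of the pair, Car9 held 91.8% to 99.8% of the summed RPKM in CD45+ libraries, and in CD45- libraries from 10.5% in wild type TdT+;CD45- replicate 1 to 97.6%. Among the other targets, Ddit4 (an inhibitor of mTORC1) and Ndrg1 (a stress-induced gene) were lower in CD45+ cells by -0.93 ± 0.27 and -0.79 ± 0.29 on the log2 scale. The call of Ndrg1 was lost without Cdh2-cKO TdT+;CD45- replicate 1 (-0.50, adjusted p = 0.136, edgeR). Ankrd37, an ankyrin-repeat gene induced by HIF, went the other way, with a median of 68.95 normalized CPM in CD45+ and 32.1 in CD45- libraries (log2 fold change 1.18 ± 0.30; adjusted p = 0.00229, edgeR).

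**Figure D2:**
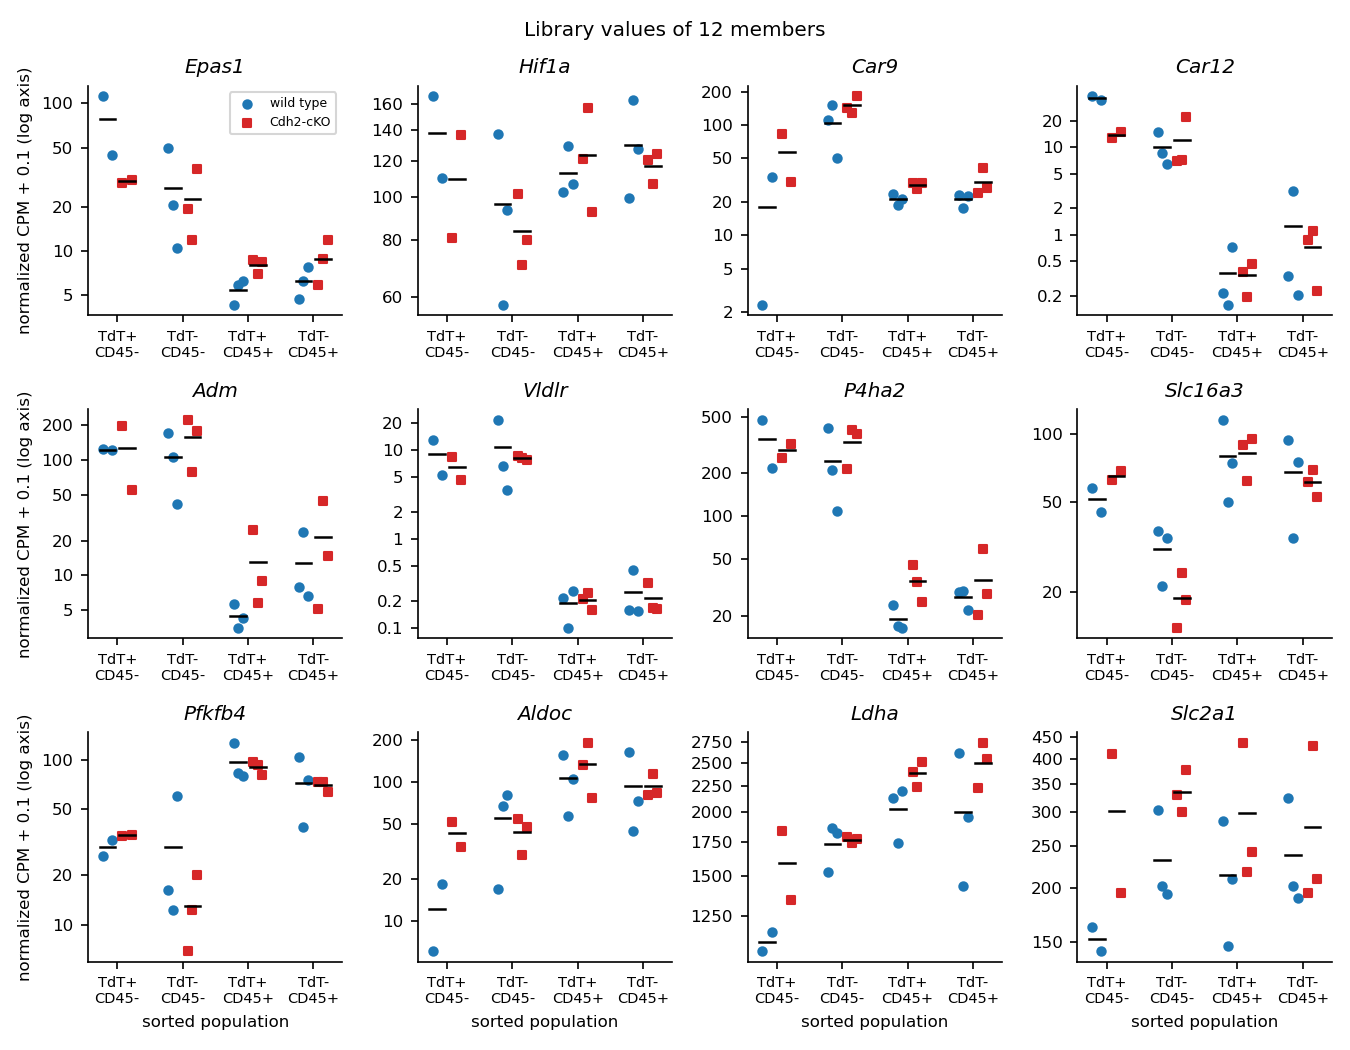
Points are libraries of 12 members in the 4 sorted populations, as normalized CPM plus 0.1 on a log axis; circles are wild type, squares Cdh2-cKO, and lines the mean of each group of 2 or 3 libraries. Vldlr, Car12 and P4ha2 separate CD45+ from CD45- libraries without overlap, whereas the CD45+ and CD45- values of Hif1a and Slc2a1 overlap, with 4 of the 6 TdT-;CD45- Hif1a values (57.5 to 93.2) below every TdT-;CD45+ value (99.02 to 164).

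The glycolytic enzymes were the larger part of the module, 15 members, of which 9 rose and 2 fell in CD45+ relative to CD45- cells, where 32.6% of all genes rose and 31.1% fell. With library totals in place of TMM factors, 2 were higher and 4 lower (3074 and 6484 of all 15018 genes), and 9 of 15 stayed above 0. The changes were small for the most abundant enzymes. Ldha (lactate dehydrogenase A) ranged from 1432 to 2737 normalized CPM in CD45+ libraries (median 2238) and from 1065 to 1858 in CD45- libraries (median 1755), a log2 fold change of 0.54 ± 0.12 (SE; edgeR, adjusted p = 0.00065). Its lowest CD45+ value was that of wild type TdT-;CD45+ replicate 2, and its call was lost with library totals (0.21, adjusted p = 0.085). Aldoa, Gpi1, Pfkp, Tpi1, Eno1 and Hk2 were higher by 0.37 to 0.66 on the log2 scale, and each of these calls was also lost with library totals. Eno1 and Hk2 sat at the threshold (adjusted p = 0.0346 and 0.0452, edgeR), and leaving out single libraries ended those calls. That of Eno1 was lost without wild type TdT+;CD45- replicate 1, TdT+;CD45+ replicate 1, TdT-;CD45+ replicate 1 or TdT-;CD45- replicate 1 or 3, and without Cdh2-cKO TdT+;CD45- replicate 2, TdT-;CD45+ replicate 2 or TdT-;CD45- replicate 1 (log2 fold change 0.27 to 0.35). That of Hk2 was lost without any of 12 libraries (0.32 to 0.47), namely wild type TdT+;CD45- replicate 1 or 2, TdT+;CD45+ replicate 1 or 3, TdT-;CD45+ replicate 1 and TdT-;CD45- replicate 2 or 3, and Cdh2-cKO TdT+;CD45- replicate 2, TdT+;CD45+ replicate 1, TdT-;CD45+ replicate 2 and TdT-;CD45- replicate 2 or 3. Pfkp lost its call without wild type TdT+;CD45- replicate 2 (0.51, adjusted p = 0.0513, edgeR) or Cdh2-cKO TdT+;CD45- replicate 2 (0.50, adjusted p = 0.0575, edgeR).

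Aldoc and Eno2, the minor aldolase and enolase best known from brain, moved further than the main forms and in opposite directions. Aldoc ranged from 44.2 to 189.7 normalized CPM in CD45+ libraries (median 94.25) and from 6.02 to 79.8 in CD45- libraries (median 40.8), with a log2 fold change of 1.65 ± 0.32 (SE; edgeR, adjusted p = 0.000208). Eno2 ranged from 0.361 to 3.48 in CD45+ and from 1.76 to 9.57 in CD45- libraries, a log2 fold change of -2.01 ± 0.36 (adjusted p = 0.000119, edgeR). Per length both stayed marginal, since Aldoa held 97.2% to 99.75% of the aldolase pair and Eno1 97.8% to 99.97% of the enolase pair over the 22 libraries. Hk1 was the other enzyme that was lower in CD45+ cells (-0.50 ± 0.14; adjusted p = 0.00549, edgeR), so that the hexokinase pair moved apart. Hk2 was nevertheless the larger of both per length in all 22 libraries, with Hk1 at 11.7% to 22.7% of the pair in CD45+ and 16.6% to 46.3% in CD45- libraries. Pfkl, Pkm, Pgk1 and Pgam1 did not pass the test, with log2 differences of -0.06, 0.10, 0.05 and 0.29, although Pgam1 did without wild type TdT-;CD45+ replicate 2 (0.36, adjusted p = 0.0299, edgeR).

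Per length, in CD45+ libraries the highest median levels were those of Aldoa (1638 normalized RPKM), Pkm (1208) and Ldha (751), and the lowest those of Eno2 (0.254), Car12 (0.0569) and Vldlr (0.0088). In CD45- libraries the same enzymes led (1218, 1200 and 589), and Adm (75.3) and P4ha2 (46.4), which held 4.46 and 4.30 in CD45+ libraries, stood near the phosphofructokinase Pfkl (54.3).

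The other paired members overlapped between CD45+ and CD45- libraries. Aldoa, the main aldolase, ranged from 2860 to 5567 normalized CPM in CD45+ and from 2016 to 3990 in CD45- libraries, and Eno1, the main enolase, from 742 to 1477 and from 492 to 1232. Hk2 ranged from 139 to 353 in CD45+ and from 107 to 197 in CD45- libraries, and Hk1 from 42.2 to 84.0 and from 54.8 to 133. Wild type TdT+;CD45- replicate 1 held the lowest CD45- value of Aldoa and of Eno1. Of the phosphofructokinases, Pfkl held 48.9% to 78.6% of the summed RPKM in CD45+ and 66.2% to 80.1% in CD45- libraries. Bnip3 held 72.8% to 88.75% of its sum with Bnip3l in CD45+ and 69.8% to 83.6% in CD45- libraries, and Pfkfb3 17.2% to 51.9% of its sum with Pfkfb4 in CD45+ and 15.2% to 58.7% in CD45- libraries, so these shares overlapped.

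Several of these genes have near-identical copies, and their counts are uncertain. Of all stretches of 50 bases, the read length, in the annotated transcripts, 53.9% of those of Pgk1 also occurred in another annotated gene, 47.2% of those of Bnip3, 36.2% of those of Pgam1, 26% of those of Eno1, 25.8% of those of Pkm and 25.1% of those of Gapdh, the last shared with 223 other genes. Per the study's methods, reads that matched several places were not counted, so such stretches add nothing to these genes' values. Bnip3l (20.8%), Higd1a (24.4%), Ankrd37 (17%) and Gpi1 (15.8%) followed. The exons of Ankrd37 (28.9% of bases) and of Gpi1 (16.5%) overlap other annotated genes at the same place. Their shared stretches need not be copies elsewhere. Gapdh, the glyceraldehyde phosphate dehydrogenase, was at 15.2 to 70.5 normalized CPM although no library held less than 1065 of Ldha. Its log2 fold change of 0.72 ± 0.17 (edgeR, adjusted p = 0.00134) therefore rests on the uniquely placed reads. Pgam1 was at most 9.77 normalized CPM in any library.

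The regulators of glucose flux were higher in CD45+ cells, 3 of 3, where 32.6% of all genes were higher, and were called under each of the other settings tried, both genotypes alone included. Pfkfb4, one of the enzymes that make fructose 2,6-bisphosphate, the activator of phosphofructokinase, ranged from 38.7 to 126 normalized CPM in CD45+ libraries (median 79.8) and from 6.78 to 59.8 in CD45- libraries (median 22.9). The lowest CD45+ value was that of wild type TdT-;CD45+ replicate 2 and the highest CD45- value that of wild type TdT-;CD45- replicate 3; no other libraries overlapped. The log2 fold change was 1.70 ± 0.27 (SE; edgeR, adjusted p = 3.22e-05). Pfkfb3, its paralog, ranged from 36.9 to 95.3 in CD45+ and from 11.1 to 66.9 in CD45- libraries, with a log2 fold change of 1.33 ± 0.27 (adjusted p = 0.000358, edgeR), and only Cdh2-cKO TdT+;CD45- replicate 1 of the CD45- libraries lay within the CD45+ range. Pdk1, which holds back the use of pyruvate in the mitochondria by phosphorylating pyruvate dehydrogenase, ranged from 35.7 to 54.1 in CD45+ and from 21.8 to 37.5 in CD45- libraries (0.70 ± 0.11; adjusted p = 3.47e-05, edgeR). Both CD45- libraries that overlapped CD45+ values of the Pfkfb genes are those with the most leukocyte transcripts. Those that overlapped for Pdk1 were wild type and Cdh2-cKO TdT-;CD45- replicate 1 (37.5 and 37.3), with leukocyte sums of 46.75 and 107.9. The part of leukocyte transcripts in these values was not tested.

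Of the transporters, Slc16a3 (MCT4, the lactate exporter; ENSMUSG00000025161, chromosome 11, 120948480 to 120960868, plus strand) ranged from 34.4 to 116 normalized CPM in CD45+ libraries (median 71.8) and from 13.7 to 68.3 in CD45- libraries (median 35.7). The log2 fold change was 0.95 ± 0.19 (SE; edgeR, adjusted p = 0.000286). The 4 highest CD45- values were those of the TdT+ libraries. Slc2a1 (GLUT1), the main glucose importer under hypoxia, ranged from 146 to 436 in CD45+ and from 142 to 410 in CD45- libraries and did not pass the test (0.06 ± 0.20; adjusted p = 0.808, edgeR). Of the mitochondrial members, Bnip3, a receptor for the removal of mitochondria, was higher in CD45+ cells (0.64 ± 0.21; adjusted p = 0.013, edgeR), a call lost with library totals (0.30), and Bnip3l and Higd1a did not pass the test (-0.07 ± 0.11 and 0.05 ± 0.12).

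**Figure D3:**
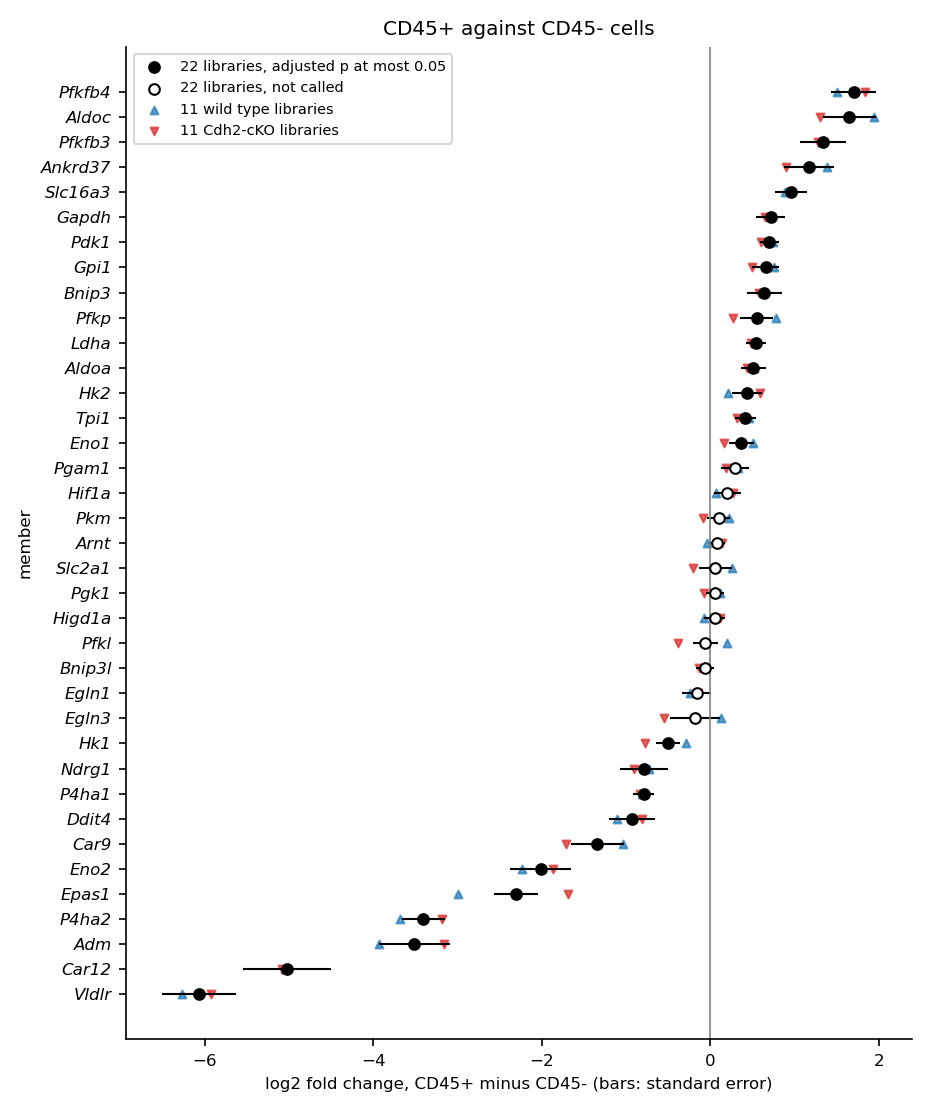
Log2 fold change of each member between CD45+ and CD45- cells over 22 libraries (circles, filled where the adjusted p was at most 0.05, with standard error bars), beside the values from the 11 wild type libraries (triangles pointing up) and the 11 Cdh2-cKO libraries (triangles pointing down). The members run from -6.07 for Vldlr to 1.70 for Pfkfb4, and the wider separation between genotypes of Epas1 (-2.99 and -1.69) did not pass the test of the difference.

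**Figure D4:**
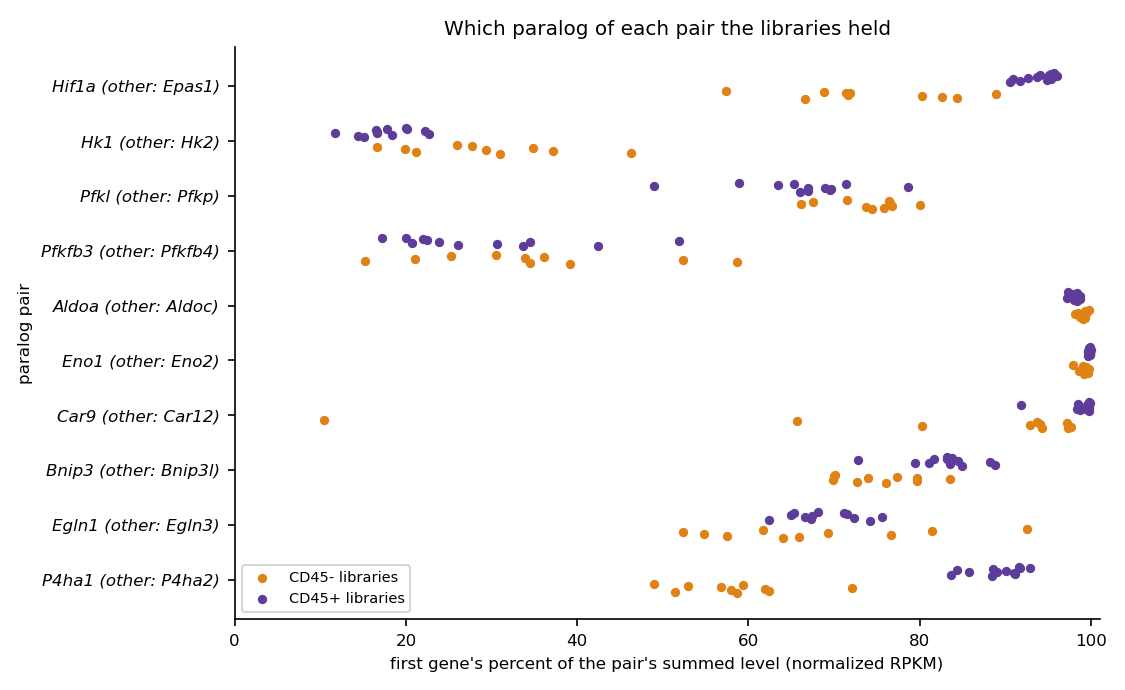
For 10 pairs of related members, the share of the first gene in the summed level of the pair (normalized RPKM, percent) in each library, CD45- in orange and CD45+ in purple. The Hif1a and P4ha1 shares separate CD45- from CD45+ libraries, and 1 CD45- library falls to 10.5% Car9.

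The promoters of the members were searched for the HIF core. They were matched by symbol for 34 of the 37 members in the RefSeq table (GRCm38.p6), and the 250 bases before each start were searched for ACGTG on both strands, which also finds every CACGTG E-box. The core occurred in 18 of 34 members (52.9%) and in 4998 of 27025 genes of the table (18.5%). By their change in CD45+ cells it occurred in 7 of 15 members called higher, 4 of 9 called lower and 7 of 10 not called, so members in each class had it. A match is a description of the letters and does not show a bound site. Below are the upstream bases of 1 gene that was lower in CD45+ cells (P4ha1, chr10:59323046-59323295, plus strand), 1 that was higher (Ankrd37, chr8:45999868-46000100, minus strand), 1 that was not called between CD45+ and CD45- cells but was lower in TdT+;CD45- cells (Pgk1, chrX:106186850-106187099, plus strand) and 1 that was higher and whose core lies in an E-box (Bnip3, chr7:138909520-138909756, minus strand), 5′ to 3′ with the core or its reverse complement in capitals.
P4ha1: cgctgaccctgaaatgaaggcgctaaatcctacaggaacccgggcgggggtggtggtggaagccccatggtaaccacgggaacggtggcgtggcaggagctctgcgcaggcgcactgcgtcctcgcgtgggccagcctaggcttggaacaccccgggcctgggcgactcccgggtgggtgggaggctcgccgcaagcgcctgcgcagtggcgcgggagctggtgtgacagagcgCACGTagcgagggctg
Ankrd37: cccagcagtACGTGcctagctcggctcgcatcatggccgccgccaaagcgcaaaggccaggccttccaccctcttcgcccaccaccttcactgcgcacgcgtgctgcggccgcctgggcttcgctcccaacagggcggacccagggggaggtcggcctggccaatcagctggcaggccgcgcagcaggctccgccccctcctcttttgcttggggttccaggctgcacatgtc
Pgk1: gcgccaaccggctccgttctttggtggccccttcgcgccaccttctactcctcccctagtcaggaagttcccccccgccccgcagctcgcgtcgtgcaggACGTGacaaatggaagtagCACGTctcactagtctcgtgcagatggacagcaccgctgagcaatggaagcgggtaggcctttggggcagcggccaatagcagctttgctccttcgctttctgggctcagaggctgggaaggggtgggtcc
Bnip3: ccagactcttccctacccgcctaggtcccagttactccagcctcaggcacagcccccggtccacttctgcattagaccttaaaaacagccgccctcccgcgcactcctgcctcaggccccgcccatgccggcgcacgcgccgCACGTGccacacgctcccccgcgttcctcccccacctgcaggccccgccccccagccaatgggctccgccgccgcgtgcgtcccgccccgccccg
The P4ha1 window holds the core near its end and that of Ankrd37 near its beginning, where a further match lay in the bases not shown because the deposited annotation counts them to the transcript. Pgk1 has a match on each strand. The sequences are RefSeq's, read on the build of the files.

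The second question was whether TdT marked a difference within CD45- cells, where 4 TdT+ libraries stood against 6 TdT- libraries. Of the 37 members, 3 were called, 2 higher (1.23% of all genes tested were higher) and 1 lower (0.659%), and 1.89% of all genes were called in either direction. At an unadjusted p under 0.05 there were 14 members, 3 higher and 11 lower. The share of all genes at that unadjusted cut was not counted, here or in the comparisons below. Such counts are therefore no result about the module. The median log2 fold change was -0.29 over the members and 0.07 over all genes. Of the calls over all genes 65.1% were higher, and 52.5% with library totals in place of TMM factors, where 1 member was higher and 2 lower.

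Slc16a3 was at 57.5, 45.0, 62.5 and 68.3 normalized CPM in the TdT+;CD45- libraries (the first 2 wild type) and at 36.96, 21.2 and 34.5 in the wild type and 13.7, 24.0 and 18.3 in the Cdh2-cKO TdT-;CD45- libraries. The groups did not overlap, and TdT+;CD45- values reached into those of CD45+ cells. The log2 fold change was 1.27 ± 0.27 (SE; edgeR, adjusted p = 0.0303). It was 1.80 ± 0.25 in the Cdh2-cKO libraries alone (edgeR, adjusted p = 0.000575, where 8.1% of all genes passed) and 0.73 ± 0.46 in the wild type libraries alone (adjusted p = 0.604, where 0% passed). Without the pair of CD45- libraries with the most leukocyte transcripts it was 1.34 (adjusted p = 0.0621, edgeR), and 2 members were then called, Pgk1 (-0.86) and Car9 (-2.59), both lower. The leukocyte marker sums of the TdT+;CD45- libraries were 31.4 and 944 in wild type and 2398 and 1044 in Cdh2-cKO. Those of the TdT-;CD45- libraries were 46.75, 595.5 and 3701 in wild type and 107.9, 161.3 and 119.1 in Cdh2-cKO. In Cdh2-cKO these sums thus separated TdT+ from TdT- libraries too. Their part in the Slc16a3 difference was not tested.

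Arnt was at 58.0, 56.9, 42.9 and 38.1 normalized CPM in TdT+;CD45- libraries and at 31.4, 23.5, 28.6, 29.8, 34.3 and 37.5 in TdT-;CD45- libraries. Here too the groups did not overlap, though the nearest libraries, both Cdh2-cKO, were at 38.1 and 37.5, and the log2 fold change was 0.65 ± 0.14 (SE; edgeR, adjusted p = 0.0323). Members without overlap were 2 of 37 higher and 0 lower, against 2.72% and 2.14% of all genes. Pgk1, the phosphoglycerate kinase, was at 42.1, 41.8, 73.0 and 53.6 in TdT+;CD45- libraries and at 89.1, 73.2, 66.3, 100.1, 74.0 and 98.7 in TdT-;CD45- libraries (-0.69 ± 0.16; adjusted p = 0.0438, edgeR), and 1 TdT+;CD45- library lay within the other range. It is among the members whose counts are uncertain.

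Car9 missed the threshold by edgeR (-1.97 ± 0.50; adjusted p = 0.0512) and passed it by limma's voomWithQualityWeights (-2.50, adjusted p = 0.00938) and DESeq2 (-2.01, adjusted p = 0.00183). It was at 2.25, 33.6, 82.7 and 30.4 normalized CPM in TdT+;CD45- libraries and at 111, 151, 50.4, 143, 127 and 181 in TdT-;CD45- libraries. The epithelial or tumor marker sums of the same libraries were 33.8, 566, 933 and 928 in TdT+;CD45- and 505, 1403, 595, 1228, 1994 and 1063 in TdT-;CD45- libraries, so the library lowest in Car9 was also the lowest in these markers. Their part in the Car9 difference was not tested. Without wild type TdT+;CD45- replicate 2 the log2 difference was -3.47 (adjusted p = 0.000581, edgeR), and without wild type TdT-;CD45+ replicate 2 or wild type TdT-;CD45- replicate 1 or 3 it passed with values from -2.14 to -1.95. Gapdh also missed it (-0.9997 ± 0.26; adjusted p = 0.0529, edgeR), and passed without wild type TdT-;CD45+ replicate 2 (-0.999) or Cdh2-cKO TdT-;CD45- replicate 2 (-1.12). By edgeR over the 22 libraries, Epas1 was higher (0.97 ± 0.37) at an unadjusted p under 0.05 only. Aldoa, Aldoc, Tpi1, Gpi1, Eno1, Pkm, Ldha and Higd1a were lower there, also at an unadjusted p under 0.05 only. DESeq2 called Gpi1 (-0.755, adjusted p = 0.0387), Pkm (-0.625, adjusted p = 0.0344) and Gapdh (-1.02, adjusted p = 0.00575) lower. Gapdh was also called lower with RLE factors (-1.02) and with library totals (-1.08).

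These calls rest on few libraries. None of the 3 was called without each library in turn: the count of members called fell to 0 without wild type TdT+;CD45- replicate 1, wild type TdT-;CD45- replicate 2, Cdh2-cKO TdT+;CD45- replicate 1, Cdh2-cKO TdT+;CD45- replicate 2 or Cdh2-cKO TdT-;CD45- replicate 1, and rose to 5 without wild type TdT-;CD45+ replicate 2, wild type TdT-;CD45- replicate 1 or wild type TdT-;CD45- replicate 3. Slc16a3 was lost in those 5 cases (1.16 to 1.30), and Arnt in the same cases and without Cdh2-cKO TdT-;CD45- replicate 2 (0.60 to 0.69). Pgk1, nearest to the threshold, was lost without any of 16 of the 22 libraries (-0.81 to -0.59), 9 of them CD45+ libraries that hold none of the cells compared. Epas1 passed without wild type TdT-;CD45- replicate 1 (1.38) and Pfkfb4 without wild type TdT-;CD45- replicate 3 (1.23). The fold changes of the 3 called members had the same sign in each genotype alone.

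**Figure D5:**
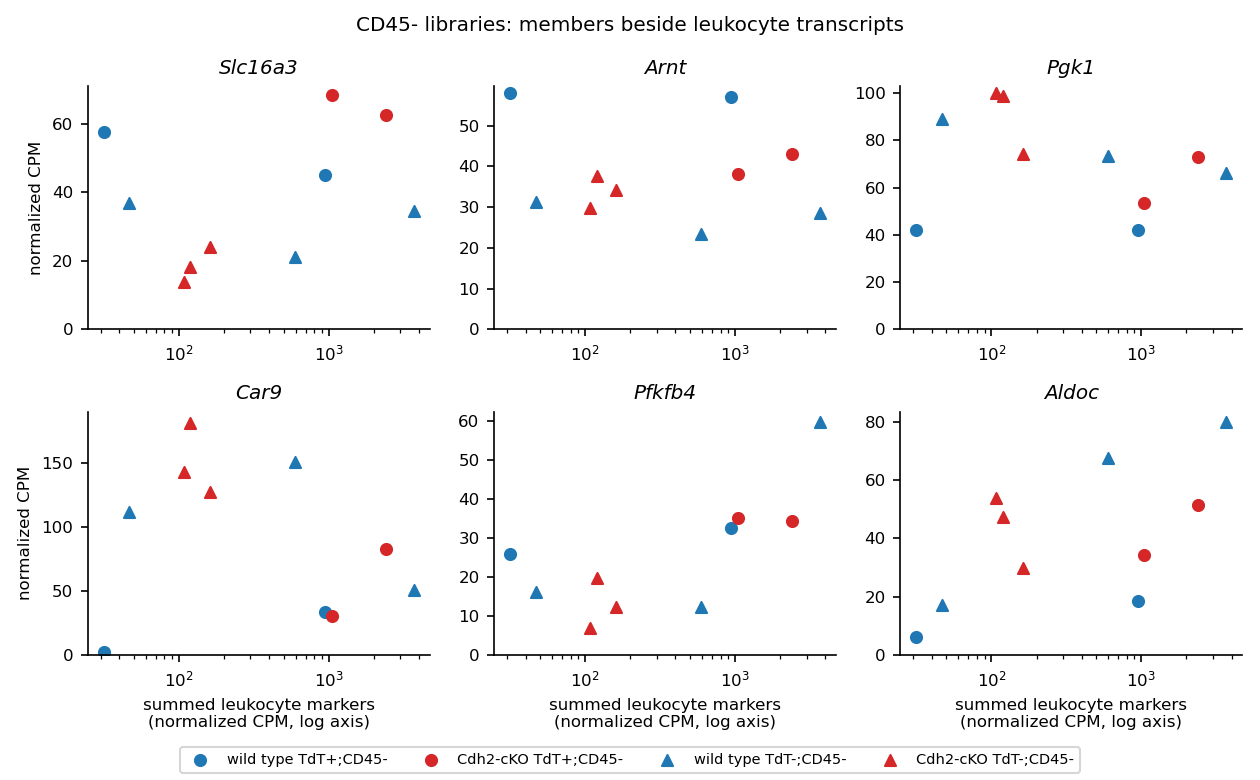
The 10 CD45- libraries, with the summed leukocyte markers on the horizontal log axis and 6 members on the vertical axes (both normalized CPM); circles are TdT+ and triangles TdT-, blue wild type and red Cdh2-cKO. The TdT+ libraries hold the 4 highest Slc16a3 values at leukocyte sums from 31.4 to 2398, and Pfkfb4 is highest (59.8) in the library with the highest sum (3701).

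Within CD45+ cells, TdT+ and TdT- libraries (6 each) gave no call by edgeR's test: 0 of 37 members passed and 1 (Car12, -1.70 ± 0.75) had an unadjusted p under 0.05, while 0.00666% of all genes were called. No member's groups were free of overlap, 0 higher (0.0533% of all genes) and 0 lower (0.04%). The alternatives voomWithQualityWeights (limma) and DESeq2 also called 0. The fit was unpaired, since the labels do not tie libraries to mice, and spread between mice was not removed from it. The log2 differences of the members ran from -1.70 to 0.39 with a median of -0.05. Car12 rests on 1 to 54 counts in these libraries, and its highest value belonged to wild type TdT-;CD45+ replicate 2. For the abundant members Ldha and Pkm the differences were small (-0.03 ± 0.16 and 0.02 ± 0.18).

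The difference of the CD45 effect between TdT+ and TdT- cells was tested as an interaction. It passed for 0 of 37 members (0.00666% of all genes) by edgeR, with 11 at an unadjusted p under 0.05, and for 0 by limma's voomWithQualityWeights and DESeq2. The largest were Car12 (-2.74 ± 0.98), Car9 (1.92 ± 0.64) and Aldoc (1.45 ± 0.61), with adjusted p = 0.469, 0.463 and 0.483 by edgeR. Without wild type TdT+;CD45- replicate 2 that of Car9 passed (3.42, adjusted p = 0.00527, edgeR). Over 22 libraries, TdT marking Slc16a3 and Arnt in CD45- but not CD45+ cells was thus not shown to be a difference between them. Their interactions were -0.93 ± 0.37 and -0.57 ± 0.19 (adjusted p = 0.48 and 0.463, edgeR). In the Cdh2-cKO libraries alone that of Slc16a3 passed (-1.35, adjusted p = 0.0467, edgeR), where 3.9% of all genes passed.

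The last question was whether libraries labelled Cdh2-cKO differed from wild type ones. No member was called over the 4 populations by edgeR (0 of 37, as 0% of all genes), 12 had an unadjusted p under 0.05, all higher in the libraries labelled Cdh2-cKO, limma's voomWithQualityWeights called 0 and DESeq2 called 1 (Pfkl, 0.58, adjusted p = 0.038). The log2 difference was above 0 for 31 of 37 members, with a median of 0.28 against -0.05 over all genes. The shares of all genes above 0 or at that unadjusted p were not counted, so these numbers are no result about the module. Pfkl, the liver-type phosphofructokinase, had the smallest p (0.57 ± 0.15; adjusted p = 0.279, edgeR). It was at 161 and 169 normalized CPM in wild type and 426 and 265 in Cdh2-cKO TdT+;CD45- libraries, and at 190.5, 245 and 193 against 233, 397 and 326 in TdT-;CD45- libraries. The TdT+;CD45+ libraries were at 250.3, 154 and 229.0 in wild type and 297, 326 and 264 in Cdh2-cKO, and the TdT-;CD45+ libraries at 257, 162 and 232 and at 215, 327.5 and 171. The genotypes thus did not overlap in TdT+;CD45- and TdT+;CD45+ cells and overlapped in both TdT- populations. Slc2a1 was at 162 and 142 in wild type and 410.3 and 194.5 in Cdh2-cKO TdT+;CD45- libraries (0.99 ± 0.46; adjusted p = 0.47, edgeR).

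By population no member was called either by edgeR, with 11 at an unadjusted p under 0.05 in TdT+;CD45- cells, 0 in TdT+;CD45+, 3 in TdT-;CD45- and 0 in TdT-;CD45+ cells, and limma's voomWithQualityWeights and DESeq2 called 0 in each. The share called among all genes was 0.00666% in TdT+;CD45- cells and 0% in the other populations. In TdT+;CD45- cells, with 2 libraries a genotype, 16 members did not overlap and were higher and 3 were lower in those labelled Cdh2-cKO, where 21.4% and 20.7% of all genes were so. In TdT+;CD45+ cells 8 members did not overlap and were higher and 0 were lower (6.76% and 6.05% of all genes), in TdT-;CD45- cells 0 and 0 (3.87% and 5.35%) and in TdT-;CD45+ cells 2 and 0 (4.16% and 5.9%). Those that were lower in TdT+;CD45- cells were Car12, Epas1 (111 and 44.9 normalized CPM against 28.9 and 30.3) and Arnt (58.0 and 56.9 against 42.9 and 38.1). Leaving out wild type TdT+;CD45- replicate 2 left replicate 1 as the sole wild type library of that population, assumed to vary like the other groups, and Car9 was then called (4.65, adjusted p = 0.00844, edgeR), as it was over the 4 populations (1.54, adjusted p = 0.00688). The leukocyte sums of these libraries were 31.4 and 944 in wild type and 2398 and 1044 in Cdh2-cKO libraries, and their part in these differences was not tested. The difference of the CD45 effect between the genotypes passed for 0 of 37 members by edgeR (0% of all genes), 1 having an unadjusted p under 0.05 (Epas1), and for 0 by limma's voomWithQualityWeights and DESeq2.

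Other genes of the same pathways gave the following counts between CD45+ and CD45- cells. Of 27 further genes of glycolysis and pyruvate use, 22 were tested, 9 rose and 9 fell in CD45+ cells. The smallest adjusted p belonged to Bpgm (bisphosphoglycerate mutase, -2.94 ± 0.22), Slc16a1 (MCT1, -1.32 ± 0.17) and Eno3 (muscle enolase, -2.64 ± 0.37). The sum of 4 erythroid markers was 1.17 to 2923 normalized CPM in CD45- and 2.80 to 21.3 in CD45+ libraries. That of 5 skeletal muscle markers was 6.32 to 175 in CD45- and 1.60 to 29.6 in CD45+ libraries. The part of such transcripts in the Bpgm and Eno3 differences was not tested. Slc16a1 and Slc16a3, which carry lactate across the membrane, thus moved in opposite directions. Of 19 further genes induced by hypoxia, all tested, 5 were higher and 7 lower. Tmem45a (-7.25 ± 0.32), Angptl4, an inhibitor of lipoprotein lipase (-3.73 ± 0.32), and Stc2, a secreted glycoprotein (-4.71 ± 0.49), were the foremost of these. Of 6 further regulators of HIF, 5 were tested, 0 passed by edgeR and 0 had an unadjusted p under 0.05 (Egln2, Cited2 and Vhl had the smallest p, at adjusted p = 0.234, 0.237 and 0.467). Among all genes 63.7% were called in this comparison. Between TdT+ and TdT- libraries of CD45- cells, Pdk3, a pyruvate dehydrogenase kinase (0.75 ± 0.19; adjusted p = 0.0487, edgeR), and Egln2, a further HIF prolyl hydroxylase (0.78 ± 0.19; adjusted p = 0.0467, edgeR), were higher in TdT+ cells, and no other gene of these lists was called there.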

How the data were processed

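RNA of 22 sorted libraries was amplified (SMARTer) and sequenced as 50-base single reads, with no strand information. The authors aligned reads with STAR (2.0.4b) to GRCm38 and counted uniquely placed reads per Ensembl gene with featureCounts (1.45, as labelled). They deposited counts, CPM and RPKM for 41388 genes per library; the deposited CPM and RPKM were checked against the counts and not otherwise used.

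Members and lists were chosen with earlier results of these data known. After removal of 355 rRNA genes, the 15018 genes above 1 CPM in at least 2 libraries were tested with edgeR 4.0.16 (R 4.3.3; TMM, quasi-likelihood, 8 group means over all 22 libraries), with Benjamini-Hochberg adjustment and a threshold of 0.05. The code was also run on simulated counts in which all libraries shared the same gene means apart from a small set of changed genes. Such counts are simpler than these data, so that run does not bear on the calls given here. Each genotype, TdT or CD45 comparison weighted the group means equally. Normalized CPM and normalized RPKM were computed here from counts and TMM factors. All 37 members could be named. Values per library were given for HIF subunits and sensors, the 12 members with the smallest adjusted p between CD45+ and CD45- cells, members called elsewhere and pairs of related members, and test values for the 3 genes with the smallest p of each further list. Values outside this rule (Slc2a1, Ldha, Gapdh, Pgam1, Ankrd37, Pdk3) were chosen after they were seen. Alternatives were limma 3.58.1 (voomWithQualityWeights), DESeq2 1.42.0, RLE factors, library totals, no filter, each genotype alone, a replicate block and each library left out. Leaving out the 2 CD45- libraries with the most leukocyte transcripts was added after the data were seen. Replicate numbers were taken from the labels. Depth is given with the results, and floors cover counting error only. The ± values are standard errors derived from edgeR's test, as the absolute log2 fold change over the square root of its F statistic. They take in the spread between libraries and are approximate, above all for genes near the floor. Libraries of a group differed by far more than counting error, so none was the same library sequenced again. That does not show that they came from different mice.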

Additional observations from a re-analysis of the deposited data

How the results depend on the processing

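Between CD45+ and CD45- cells, 12 of the 26 calls held under every other setting tried, and 22 held without each library in turn. Wild type libraries alone gave 15 calls. Without single libraries the count ranged from 23 to 27. With library totals, Arnt (-0.250, adjusted p = 0.0439, edgeR) and Pgk1 (-0.282, adjusted p = 0.0245, edgeR) changed sign and became called lower, though neither was called with TMM factors. Bnip3l (-0.399), Egln1 (-0.496) and Pfkl (-0.39) also became called lower, and 8 members lost a call of higher.

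Between TdT+ and TdT- within CD45- cells, the 3 calls became 7 with DESeq2, 5 with RLE factors and 1 without the filter. They became 7 without the 2 wild type libraries that stand apart (TdT-;CD45+ replicate 2 and TdT-;CD45- replicate 3), 0 in wild type libraries alone, and between 0 and 5 without single libraries. These counts are given without the shares of all genes and are no result about the module. By limma's voomWithQualityWeights Pgk1 was lost (-0.655, adjusted p = 0.0505), and Car9 and Pfkfb4 (1.22, adjusted p = 0.0429) were called. In Cdh2-cKO libraries alone (8.1% of all genes called) Arnt and Pgk1 were lost, and Pfkfb4 (1.4) and Car9 (-1.42) were called. With the replicate number as a block the count was 1 here and 25 between CD45+ and CD45- cells. The labels' numbers did not pair the libraries throughout: of 30 same-numbered pairs, 10 correlated above 0.1 (range -0.379 to 0.674, median 0.0586, against -0.02605 for 60 other pairs). The value of 0.674 was that of wild type TdT+;CD45- and TdT-;CD45- replicate 1. Values of groups with 2 libraries mirror each other, so the pairs are not independent. Among CD45+ libraries the correlation reached 0.449 in a same-numbered pair (wild type replicate 1) and 0.458 in a differently numbered pair. No pairing other than by the labels' numbers was fitted.

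Between genotypes, the count of 0 became 1 with DESeq2 and ranged from 0 to 1 without single libraries, as it did in TdT+;CD45- cells. The count for the difference of the CD45 effect between TdT+ and TdT- cells also ranged from 0 to 1 without single libraries. Cdh2-cKO libraries alone gave 1 there (Slc16a3). The causes were not tested. Groups of 2 or 3 libraries limit every genotype comparison.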
